A study of Mus musculus with 12 samples.

Results

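The D-type cyclins, their kinases, the inhibitors of those kinases and their substrate form a group of 10 genes: Ccnd1, Ccnd2, Ccnd3, Cdk4, Cdk6, Cdkn1a, Cdkn1b, Cdkn2c, Rb1 and Ccng1. The members were taken by name, as every array feature (probe) whose gene symbol in the array's annotation is one of these. That gave 27 features, of which 20 were detected on at least 3 of the 12 arrays, with a detection p under 0.01. These 20 represent 8 of the 10 genes, out of 8746 named genes measured. Cdk6, with 1 feature, and Cdkn1b, with 3, were not detected on any array, so nothing is said of their changes.

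The D cyclins bind the kinases Cdk4 and Cdk6 and switch them on in response to growth signals. The active pair phosphorylates the retinoblastoma protein, made from Rb1, which then releases E2F factors and lets the cell enter S phase. Cdkn1a and Cdkn1b, which encode p21 and p27, and Cdkn2c, which encodes p18, hold these kinases in check, and cyclin G1, made from Ccng1 and like p21, is a known target of p53. Adult heart muscle cells rarely divide, and D cyclins are known to rise in the heart during hypertrophic growth as well as in dividing cells.

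RNA came from cardiomyocytes of the left ventricle, isolated from male C57Bl6/J mice, labelled 8 weeks old, and was read on Illumina bead arrays. All mice had received AAV9, a viral vector that reaches heart muscle, as pups. The virus carried either a scrambled hairpin (shControl) or the hairpin sh-Uhrf1 #1 against Uhrf1 (shUhrf1), a gene for a reader of histone and DNA methylation marks. Which promoter drives the hairpin, and which cells it reaches, is not given in the sources used here, and 1 hairpin sequence was used. Months later the mice underwent transverse aortic constriction (TAC), which narrows the aorta and overloads the left ventricle, or a sham operation, and cells were taken 1 week after surgery. This timing and the age label of 8 weeks do not fully match, so the age is given only as labelled. There are 4 groups of 3 arrays: sham shControl, TAC shControl, sham shUhrf1 and TAC shUhrf1. The labels do not say that the 3 arrays of a group came from different mice, so the p-values measure only the spread between arrays, which may be technical.

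Between 12309 and 14908 features were detected per array, and arrays of a group correlated at 0.980 to 0.987. The number of arrays limits the precision. Uhrf1 was undetected on all 6 sham arrays. In TAC shControl it was detected on all 3 arrays (log2 intensity 6.14, 7.11 and 6.89), and in TAC shUhrf1 on 2 of 3 (4.68, 5.34 and 6.06, the first not detected). All 9 measured cardiomyocyte markers were detected on every array. None of the 7 lymphocyte markers with a feature passed the detection filter. Markers of other cell types were also present, and their levels are given beside the members they moved with.

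Promoters are shown for 3 members: Cdkn1a and Ccng1, because both carry a p53 motif and Cdkn1a rose after TAC with shControl while Ccng1 did not pass the test, and Cdk4, because it carries several copies of the motif bound by Myc and its partners. The windows run from 250 bases before to 50 bases after an annotated transcript start and come from RefSeq (GRCm38.p6). They lie at chr17:29090729-29091028 on the plus strand for Cdkn1a, at chr11:40755237-40755536 on the minus strand for Ccng1, and at chr10:127063285-127063584 on the plus strand for Cdk4. Capitals mark the p53 motif in Cdkn1a and Ccng1, and the E-boxes (CACGTG) and GC boxes (GGGCGG, here on the other strand) in Cdk4.
Cdkn1a: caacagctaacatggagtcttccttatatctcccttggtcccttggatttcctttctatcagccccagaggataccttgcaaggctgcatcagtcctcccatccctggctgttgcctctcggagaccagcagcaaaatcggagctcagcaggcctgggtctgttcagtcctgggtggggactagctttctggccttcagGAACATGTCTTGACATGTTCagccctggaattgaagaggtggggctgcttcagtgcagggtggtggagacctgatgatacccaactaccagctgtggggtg
Ccng1: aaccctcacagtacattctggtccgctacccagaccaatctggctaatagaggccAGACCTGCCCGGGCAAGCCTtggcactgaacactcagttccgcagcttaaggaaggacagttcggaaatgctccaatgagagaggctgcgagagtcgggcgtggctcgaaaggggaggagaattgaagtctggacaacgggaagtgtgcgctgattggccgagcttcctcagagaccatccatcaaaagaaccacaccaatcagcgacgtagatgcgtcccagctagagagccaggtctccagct
Cdk4: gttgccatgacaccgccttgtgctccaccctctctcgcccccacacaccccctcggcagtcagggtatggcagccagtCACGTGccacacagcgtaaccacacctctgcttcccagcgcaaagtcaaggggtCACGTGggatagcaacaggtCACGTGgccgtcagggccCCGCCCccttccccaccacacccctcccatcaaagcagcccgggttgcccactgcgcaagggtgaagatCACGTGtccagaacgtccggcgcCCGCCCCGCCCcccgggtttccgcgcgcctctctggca
Windows were found for 7 members, 10 windows in all. The search covered both strands for the GC box GGGCGG, the TATA box TATAAA, the E-box CACGTG, the E2F forms TTTCCCGC and TTTGGCGC, and a p53 site, meaning a pair of p53 half-sites side by side with the core C and G of each kept and at most 1 mismatch elsewhere. The motifs were chosen with the windows and the results known. The p53 site was in 2 of the 10 windows, beginning at position -51 from the first start of Cdkn1a and at position -195 from that of Ccng1, and in 0.067% of all 32851 windows. CACGTG, which reads the same on both strands, was in 3 windows, 4 times in that of Cdk4, and in 7.15% of all windows. GGGCGG was in 6 windows, and in 35.7% of all. In Cdk4, 2 of its 3 GC boxes overlap by a base, and in the second window of Cdkn1a it was found 2 times. TATAAA was in 1 window, that of Cdk6, and in 13.6% of all. Neither E2F form was in any member's window, and they were in 1.07% and 0.514% of all windows. A match describes letters and does not show binding.

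With the scrambled hairpin, all 3 D cyclins and the inhibitor Cdkn1a rose after TAC. The kinase Cdk4, the inhibitor Cdkn2c, the substrate Rb1 and Ccng1 did not pass the test. In limma's fit, 4 of the 8 measured members were higher at an adjusted p under 0.05 and 0 were lower, against 11.4% of all measured genes higher and 7.47% lower. The median difference of the 8 members was 0.29 on the log2 scale, beside -0.04 over all genes. The same 4 members had all 3 TAC arrays above all 3 sham arrays, as 19.2% of genes did, and 0 members had all arrays lower, as 19.3% did. Exact permutation tests of 3 arrays against 3 cannot give a p below 0.1, and each of these 4 members reached that value.

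With the hairpin against Uhrf1, 0 of 8 members passed the test in either direction after TAC, where 3.96% of genes were higher and 1.59% lower. At an unadjusted p under 0.05 in the same limma fit, 2 members passed, Cdkn1a and Ccnd2, as did 1969 of 8746 genes, a share close to that of the members. Cdkn1a and Rb1 had all 3 TAC arrays above all sham arrays, against a background of 15.6%, and Cdkn2c had all 3 below, against 13.2%. The members' median difference was 0.056 on the log2 scale, and that of all genes 0.010.

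The 2 hairpins were compared directly in each surgery group. After TAC, 1 member, Ccnd1, was lower with the Uhrf1 hairpin and 0 were higher, where 1.36% of genes were lower and 1.53% higher. Ccnd1 and Cdk4 had all 3 arrays lower (10.7% of genes) and no member had all arrays higher (13.2%). In sham hearts 0 members passed in either direction, where 0.0457% of genes were higher and 0% lower, and at an unadjusted p under 0.05 in limma's fit 1 member did so, Ccnd2, beside 1154 of 8746 genes, a share close to that of the members. There, Ccnd2 and Ccnd3 had all arrays higher (10.2% of genes) and Cdkn2c all arrays lower (10.4%). The difference between the TAC responses under the 2 hairpins (the interaction) was past the threshold for 0 members and for 0 of 8746 genes, 0% in each direction, and at an unadjusted p under 0.05 for 1 member, Ccnd1, and for 866 genes.

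**Figure D1:**
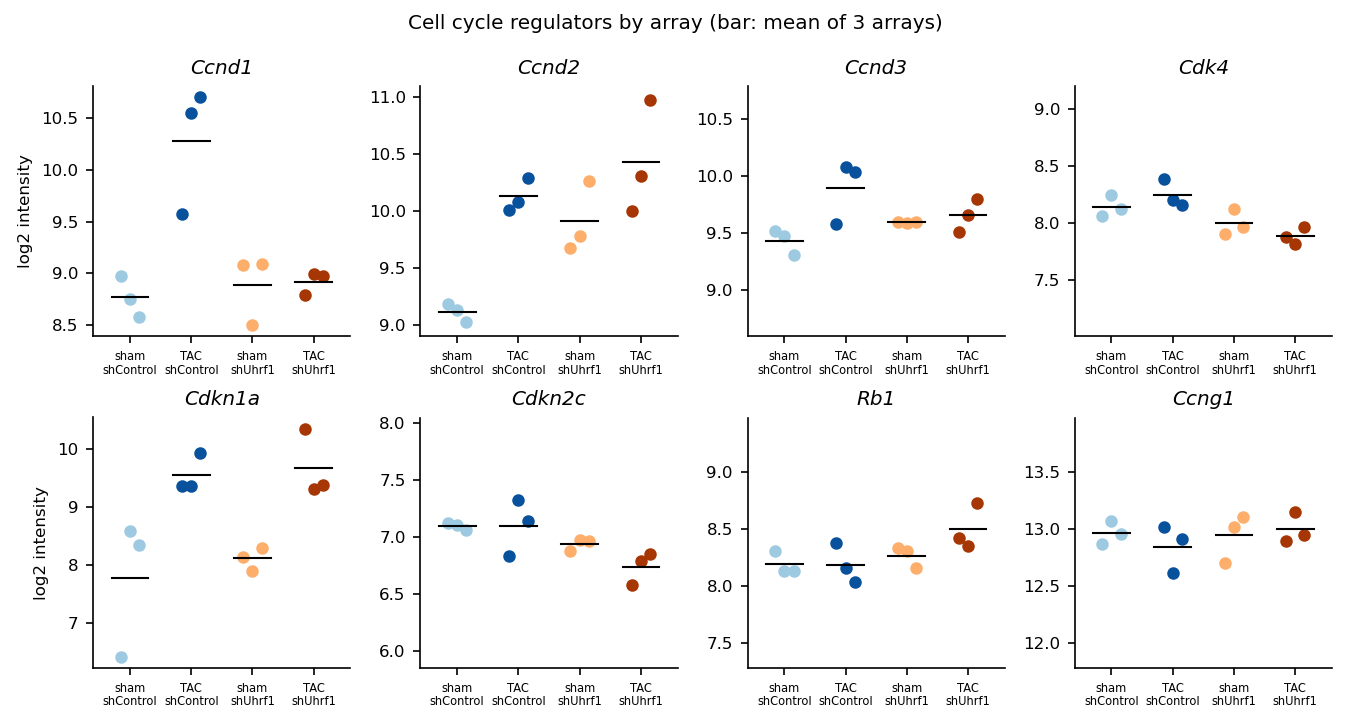
Log2 intensity of the 8 measured members on each of the 12 arrays, with 3 points per group and a bar at their mean; each panel has its own range. Ccnd1 is high in TAC shControl only, with its 3 arrays between 9.58 and 10.70, while the TAC shUhrf1 arrays lie between 8.79 and 8.99.

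**Figure D2:**
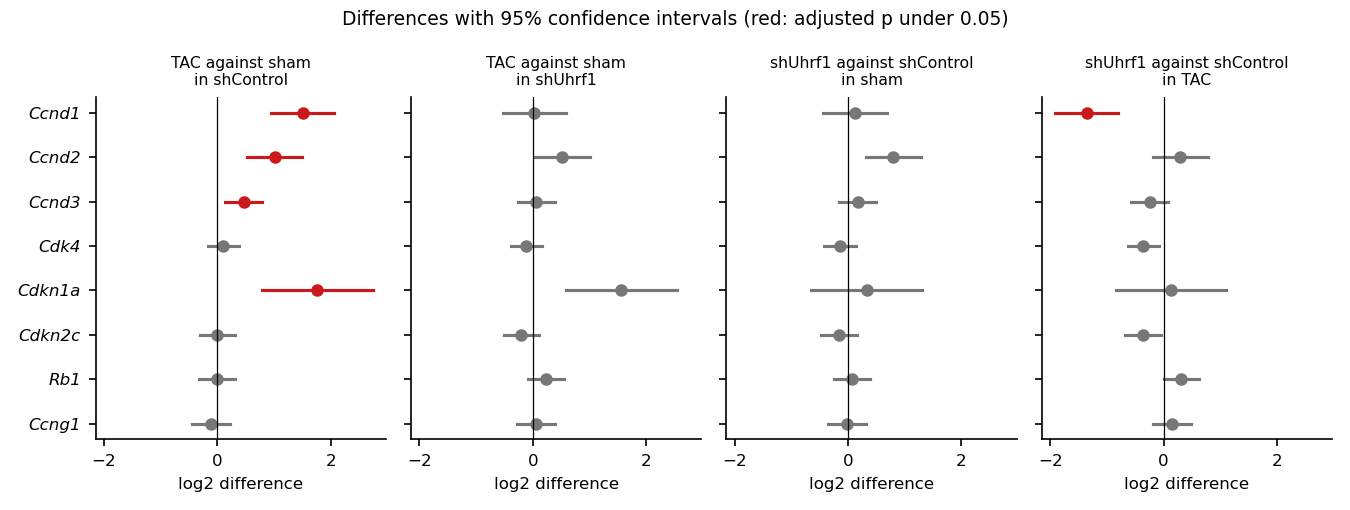
Log2 difference of each member in 4 comparisons with its 95% confidence interval, red where the adjusted p was under 0.05. In TAC against sham with shControl 4 members are red, and in shUhrf1 against shControl after TAC only Ccnd1 is, at -1.36.

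Ccnd1 encodes cyclin D1, the D cyclin best known for linking growth factor signals to the cell cycle. With shControl its log2 intensity was 8.98, 8.76 and 8.58 in sham and 9.58, 10.55 and 10.70 in TAC. With shUhrf1 it was 9.08, 8.50 and 9.09 in sham and 8.79, 8.99 and 8.98 in TAC. The TAC shControl arrays stood above the other 9, and those 9 overlapped. The rise with shControl was 1.51 ± 0.26 on the log2 scale (SE, n = 3 arrays per group), 2.84-fold, with an adjusted p of 0.00255 in limma's fit. With shUhrf1 the difference was 0.03 ± 0.26, with a 95% interval from -0.53 to 0.59 (adjusted p = 0.962). After TAC, Ccnd1 was lower with shUhrf1 than with shControl by a log2 difference of -1.36 ± 0.26, 2.56-fold, with an adjusted p of 0.0239. In sham the hairpins differed by 0.12 ± 0.26 (adjusted p = 0.876).

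The difference between the TAC responses of Ccnd1 was -1.48 ± 0.37 on the log2 scale, with an interval from -2.27 to -0.69. It did not pass over all features (limma, adjusted p = 0.233). Permuting hairpin labels within sham and within TAC gave an exact two-sided permutation p of 0.03, not adjusted for the 8 members looked at. That test supposes no hairpin effect in either surgery, not only equal TAC responses. For the other 2 Ccnd1 features the same test gave 0.055 and 0.14. Among the other members, each by its brightest feature, the lowest such value was 0.065, for Ccnd3. Without TAC shControl array 1, the lowest of its group for Ccnd1, the limma difference was -1.83 with an adjusted p of 0.0199. Of 19 alternatives for this difference, that was the only 1 that passed, and the highest adjusted p was 0.568. The lower level after TAC lost its call without any one of 4 arrays, with an adjusted p of 0.092 without TAC shControl array 2, 0.0797 without array 3, 0.0622 without TAC shUhrf1 array 2 and 0.0792 without array 3.

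A second, bright Ccnd1 feature gave the same calls, with log2 differences of 1.37 ± 0.26 after TAC with shControl (adjusted p = 0.00389) and -1.18 ± 0.26 between the hairpins after TAC (adjusted p = 0.0328). The remaining, dim feature was detected on 9 of 12 arrays and passed neither test (adjusted p = 0.075 and 0.112).

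Markers of other cells and of dividing cells moved with Ccnd1. Of 11 measured endothelial markers, 9 were higher after TAC with shControl and 1 with shUhrf1, and 4 were lower with shUhrf1 after TAC. Their mean log2 level per array was at most 7.28 on the sham shControl arrays and between 8.11 and 9.04 on the TAC shControl arrays. For shUhrf1 it lay between 6.43 and 7.76 after sham surgery and between 7.19 and 7.49 after TAC. Over all genes 11.4% rose with shControl and 3.96% with shUhrf1, and 1.36% were lower with shUhrf1 after TAC. Of 11 measured proliferation markers, 9 rose with shControl and 2 with shUhrf1, and 6 were lower with shUhrf1 after TAC. Their mean level lay between 4.96 and 5.05 on the sham shControl arrays and between 6.11 and 6.79 on the TAC shControl arrays. For shUhrf1 it lay between 4.95 and 5.07 after sham surgery and between 5.39 and 5.72 after TAC. Within TAC shControl, array 1 had the least Ccnd1 and the smallest mean level of both lists. Array 1 likewise had the smallest fibroblast (8.27), smooth muscle and pericyte (7.04), macrophage (8.55) and cardiomyocyte (13.79) marker levels in TAC shControl. Its low rank was thus not particular to the endothelial and proliferation markers. The 6 measured smooth muscle and pericyte markers had a median log2 difference of 0.67 after TAC with shControl, where 2 passed. Their median was 0.013 with shUhrf1 and -0.52 between hairpins after TAC, where 0 passed. At most 2 of the 11 proliferation markers were detected on any sham array, and 10 or 11 on each TAC shControl array. Their part in the result was not tested, and in these bulk samples fewer cells of a type and less RNA per cell cannot be told apart.

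The genes whose pattern over the 12 arrays was most like that of Ccnd1 were Nid2, a basement membrane protein, Mlkl, an effector of necroptosis, and Gimap6, a GTPase of the immune-associated family. After each gene was centred on its own mean, their root mean square differences from Ccnd1 were 0.16, 0.17 and 0.20 on the log2 scale, against a median of 0.75 over all genes. Nid2 averaged 4.95 and 6.64 with shControl in sham and TAC, and 5.08 and 5.29 with shUhrf1. Mlkl averaged 4.40 and 5.89, and 4.40 and 4.65. Its sham means were below those of Uhrf1, 4.88 and 4.54, which was undetected there. The flat part of these 2 patterns thus lies at or near background.

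**Figure D3:**
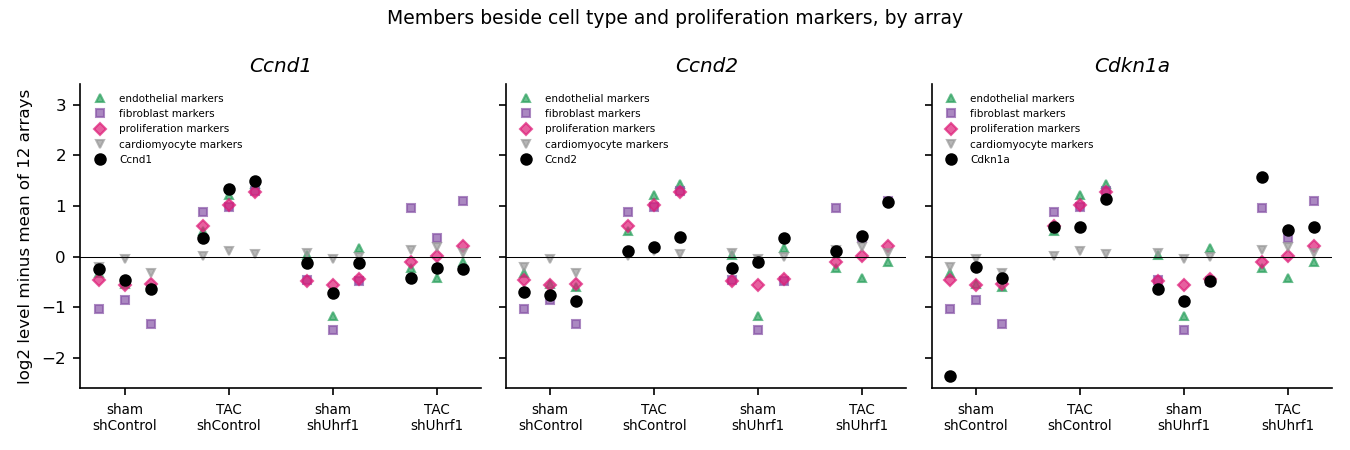
Log2 level on each array of Ccnd1, Ccnd2 and Cdkn1a, and the mean level of 4 marker lists, each centred on its own mean over the 12 arrays. Ccnd1 and the endothelial and proliferation markers are all highest on the TAC shControl arrays, while Cdkn1a is high on the TAC arrays of both hairpins.

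Ccnd2 encodes cyclin D2. It was 9.19, 9.13 and 9.02 in sham shControl and 10.01, 10.08 and 10.29 in TAC shControl. The shUhrf1 arrays read 9.68, 9.78 and 10.27 in sham and 9.999, 10.31 and 10.98 in TAC. The sham shControl arrays were the lowest 3 of the 12, and the other 3 groups overlapped. The rise after TAC with shControl was 1.01 ± 0.22 on the log2 scale, 2.02-fold (limma, adjusted p = 0.00896). With shUhrf1 the difference was 0.52 ± 0.22 (adjusted p = 0.198), and the difference between the 2 responses was -0.50 ± 0.32 (adjusted p = 0.661).

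In sham hearts all 3 shUhrf1 arrays lay above all shControl arrays for Ccnd2, by 0.80 ± 0.22 on the log2 scale, which did not pass (adjusted p = 0.158). After TAC the hairpins differed by 0.30 ± 0.22 (adjusted p = 0.513). So the group means of Ccnd2 ran 9.11, 9.91, 10.13 and 10.43 for sham shControl, sham shUhrf1, TAC shControl and TAC shUhrf1, and only sham shControl and TAC shControl differed past the threshold among the pairs tested. A second feature gave 0.98 ± 0.21 with shControl (adjusted p = 0.0084) and 0.53 ± 0.21 between the hairpins in sham (adjusted p = 0.289). The other 2 features were detected on 5 arrays and on 0.

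The array with the highest Ccnd2 was TAC shUhrf1 array 3, at 10.98. Its endothelial marker level of 7.49 and proliferation marker level of 5.72 were under every TAC shControl array. These levels and its fibroblast marker level of 8.49 were each the highest of the TAC shUhrf1 arrays. The part of these markers in the Ccnd2 values was not tested. The genes most like Ccnd2 were Ankrd10, Ndfip2, an adaptor of ubiquitin ligases, and Pabpc1, a poly(A)-binding protein, with root mean square differences of 0.18, 0.22 and 0.22 on the log2 scale against a median of 0.61.

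Ccnd3 encodes cyclin D3. It measured 9.51, 9.47 and 9.30 in sham shControl and 9.58, 10.08 and 10.03 in TAC shControl. Under shUhrf1 the values were 9.60, 9.59 and 9.60 in sham and 9.51, 9.66 and 9.79 in TAC. One TAC shControl array exceeded the highest sham shControl array only slightly and lay below all 3 sham shUhrf1 arrays, and the shUhrf1 groups overlapped. The rise with shControl was 0.47 ± 0.15 on the log2 scale, 1.38-fold, and just passed (adjusted p = 0.0493). It was lost in 13 of 20 alternative settings, with an adjusted p as high as 0.162 without TAC shControl array 3.

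With shUhrf1 the Ccnd3 difference after TAC was 0.06 ± 0.15 (adjusted p = 0.855). The hairpins differed by 0.17 ± 0.15 in sham (adjusted p = 0.663) and by -0.24 ± 0.15 after TAC (adjusted p = 0.416). A feature annotated to another Ccnd3 transcript had a like difference with shControl, 0.44 ± 0.21 (adjusted p = 0.16). After TAC that feature was lower on all 3 shUhrf1 arrays, by -0.63 ± 0.21 on the log2 scale, and did not pass (adjusted p = 0.121).

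**Figure D4:**
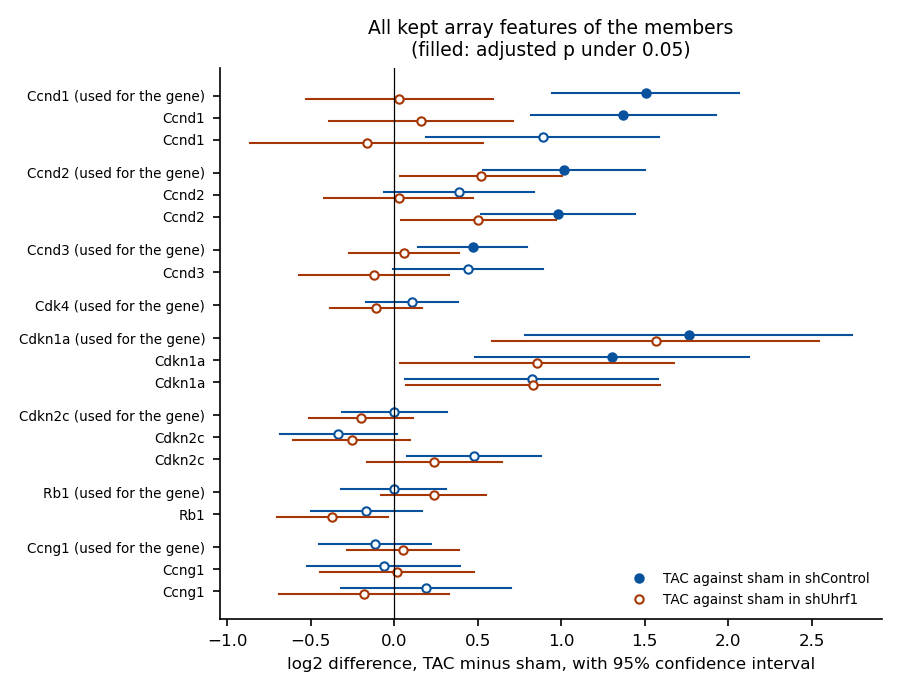
Log2 difference, TAC minus sham, of each of the 20 detected features with its 95% confidence interval, in shControl and shUhrf1, filled where the adjusted p was under 0.05. The 2 bright Ccnd1 features are filled in shControl and near 0 in shUhrf1, while the Cdkn1a features lie between 0.82 and 1.76 in both.

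Cdk4, the kinase that the D cyclins activate, did not pass any test. Its log2 intensity was 8.06, 8.25 and 8.13 in sham shControl and 8.39, 8.20 and 8.16 in TAC shControl. In the shUhrf1 groups it measured 7.91, 8.13 and 7.97 in sham and 7.88, 7.82 and 7.97 in TAC. After normalization all 12 arrays lay within a narrow range, and the TAC shUhrf1 arrays were below every shControl array. Before it the order differed, with linear intensities of 342 to 510 in TAC shUhrf1. They were 286 to 317 in sham shControl and 287 to 499 in TAC shControl. The difference after TAC was 0.10 ± 0.13 with shControl, with an interval from -0.17 to 0.38, and -0.11 ± 0.13 with shUhrf1. Between hairpins after TAC it was -0.36 ± 0.13 on the log2 scale (adjusted p = 0.144). Over the alternative settings the difference with shUhrf1 ran from -0.16 to 0.41, and that between hairpins after TAC from -0.41 to -0.045. A second feature of Cdk4 was detected on 1 array. Cdk6, the other kinase of the D cyclins, was not detected.

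Cdkn1a, the p21 gene and a classic p53 target, varied most over the 12 arrays, with an SD of 1.06 on the log2 scale. With shControl it was 6.42, 8.58 and 8.35 in sham and 9.36, 9.36 and 9.92 in TAC. With shUhrf1 it was 8.15, 7.90 and 8.29 in sham and 10.35, 9.31 and 9.37 in TAC. Every TAC array lay above every sham array. The rise with shControl was 1.76 ± 0.45 on the log2 scale, 3.39-fold (limma, adjusted p = 0.0185). With shUhrf1 the difference was 1.57 ± 0.45, 2.96-fold, and did not pass (adjusted p = 0.0651). The 2 responses differed by -0.20 ± 0.64, with an interval from -1.58 to 1.19 (adjusted p = 0.949), and without sham shControl array 1 by 0.48 (adjusted p = 0.771), so this sign rests on 1 array.

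One array, sham shControl array 1, was far below the others for Cdkn1a. Without it the difference with shControl was 1.08 on the log2 scale (adjusted p = 0.0302), and that with shUhrf1 passed, at 1.56 (adjusted p = 0.0093). The difference with shUhrf1 also passed in 4 other settings, and the call with shControl was lost without TAC shControl array 3 (adjusted p = 0.074) and with no detection filter (adjusted p = 0.0811). The other 2 Cdkn1a features were lowest on the same sham array, and gave 1.30 ± 0.38 (adjusted p = 0.0324) and 0.82 ± 0.35 (adjusted p = 0.123) with shControl. The hairpins differed for Cdkn1a by 0.33 ± 0.45 in sham and 0.13 ± 0.45 after TAC, neither past the threshold, and without sham shControl array 1 the difference in sham turned to -0.35 (adjusted p = 0.647).

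The genes most like Cdkn1a were Pqlc3, Gpx3, a secreted glutathione peroxidase, and Map1b, a microtubule-associated protein. Their root mean square differences were 0.46, 0.48 and 0.48 on the log2 scale, against a median of 1.05. Gpx3 averaged 10.09 and 11.74 with shControl in sham and TAC, and 10.45 and 12.03 with shUhrf1. In sham shControl Pqlc3 averaged 5.02 and Map1b 4.48, below the 5.04 of Cdk7, which was undetected there.

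By group, fibroblast and macrophage markers moved with Cdkn1a. By array they did not rank alike. Sham shControl array 1, lowest for Cdkn1a at 6.42, had fibroblast and macrophage levels of 6.34 and 7.77, between those of arrays 2 and 3. Sham shUhrf1 array 2, lowest for both lists (5.94 and 6.53), had Cdkn1a at 7.90, the lowest of its group. On each sham shControl array 5 or 6 of the 11 fibroblast markers were detected, and 11 on each TAC array. Of 11 measured fibroblast markers, 10 rose with shControl and 5 with shUhrf1, and their mean level went from at most 6.54 on the sham shControl arrays and 6.92 on the sham shUhrf1 arrays to 8.27 to 8.69 in TAC shControl and 7.76 to 8.49 in TAC shUhrf1. Of 9 measured macrophage markers, 3 rose in each, with mean levels of 7.51 to 7.87, 8.55 to 8.86, 6.53 to 7.81 and 8.23 to 9.06 for sham shControl, TAC shControl, sham shUhrf1 and TAC shUhrf1. The 6 smooth muscle and pericyte markers did not move with Cdkn1a under both hairpins, as 2 rose with shControl and 0 with shUhrf1. Their levels in the same group order were 6.61 to 6.78, 7.04 to 7.66, 6.46 to 7.22 and 6.69 to 6.85. The TAC shUhrf1 range thus lay inside the sham shUhrf1 range. After TAC, 1 fibroblast marker was lower with shUhrf1 and no macrophage or smooth muscle marker was. Over all genes 11.4% rose with shControl and 3.96% with shUhrf1, and 1.36% were lower with shUhrf1 after TAC. Of the 9 cardiomyocyte markers 1 rose in each hairpin group. Their mean levels in the same group order were 13.45 to 13.71, 13.79 to 13.87, 13.72 to 13.83 and 13.85 to 13.95. With each hairpin every TAC array was thus above every sham array, by a small margin. The part of these cells in the Cdkn1a result was not tested.

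Cdkn2c, which encodes p18, an inhibitor of Cdk4 and Cdk6, was 7.13, 7.11 and 7.06 in sham shControl and 6.83, 7.33 and 7.14 in TAC shControl. The shUhrf1 arrays read 6.88, 6.98 and 6.97 in sham and 6.58, 6.79 and 6.85 in TAC. The TAC shUhrf1 arrays were below every sham array, and the TAC shControl arrays spanned the sham ones. The difference after TAC was 0.00045 ± 0.14 with shControl and -0.20 ± 0.14 with shUhrf1 (adjusted p = 0.449). After TAC the hairpins differed by -0.36 ± 0.14 on the log2 scale (adjusted p = 0.192). The other 2 features of Cdkn2c were detected on 5 and 4 arrays and pointed in opposite directions after TAC with shControl, at 0.48 ± 0.19 and -0.34 ± 0.16, so the direction for Cdkn2c is not settled.

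Cdkn1b, which encodes p27, was not detected with any of its 3 features. Other CDK inhibitors are considered with the pathway lists.

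Rb1, the substrate of the D cyclin kinases, was 8.31, 8.13 and 8.13 in sham shControl and 8.38, 8.16 and 8.04 in TAC shControl. Under shUhrf1 the values were 8.33, 8.31 and 8.16 in sham and 8.43, 8.35 and 8.73 in TAC. The shControl groups overlapped, and the 3 TAC shUhrf1 arrays were above the sham shUhrf1 arrays. With shControl the difference after TAC was -0.0042 ± 0.15 on the log2 scale, with an interval from -0.32 to 0.31. In the shUhrf1 groups it measured 0.24 ± 0.15 (adjusted p = 0.362), but the second Rb1 feature gave -0.37 ± 0.15 (adjusted p = 0.178) with all 3 arrays lower. The 2 features disagree, and neither passed.

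Ccng1, a p53 target like Cdkn1a, was 12.86, 13.06 and 12.95 in sham shControl and 13.01, 12.61 and 12.91 in TAC shControl. With shUhrf1 it was 12.70, 13.02 and 13.11 in sham and 12.89, 13.15 and 12.94 in TAC. All 4 groups overlapped. The difference after TAC was -0.12 ± 0.15 on the log2 scale with shControl, with an interval from -0.45 to 0.22, and 0.05 ± 0.15 with shUhrf1, from -0.28 to 0.39. The p53 motif shown above for Ccng1 and Cdkn1a stood before one gene that rose with shControl and one that did not pass. On sham shControl array 1, the array low for Cdkn1a, the other 2 Ccng1 features were also low, with intensities of 1396 and 870 on the linear scale, against 2727 and 2752, and 1423 and 1568, on the other 2 sham shControl arrays.

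The wider p53 pathway was described with 13 measured targets. With shControl 2 rose and 0 fell after TAC, and with shUhrf1 1 rose and 0 fell, and the list's median difference was -0.15 and -0.09 on the log2 scale. Over all genes 11.4% rose and 7.47% fell with shControl, and 3.96% rose and 1.59% fell with shUhrf1. The median over all genes was -0.04 and 0.01. Phlda3, an inhibitor of Akt signalling, rose with both hairpins, by 1.30 ± 0.19 (adjusted p = 0.00124) and 0.76 ± 0.19 (adjusted p = 0.0403). Plk3, a stress-response kinase, rose with shControl by 0.90 ± 0.21 (adjusted p = 0.0115). It was undetected in sham shControl, which makes it at least 1.42-fold higher. Such bounds set the mean of the brighter group against the lowest detected signal of each array, or the gene's own where that was higher. Plk2 was 0.58 ± 0.20 and 0.72 ± 0.20 higher, with all TAC arrays above all sham arrays, and missed the threshold in both (adjusted p = 0.0557 and 0.0513). Tnfrsf10b, which encodes a death receptor, was at -0.76 ± 0.21 with shUhrf1 (adjusted p = 0.0571). No p53 target differed between the hairpins past the threshold. The mean level of the list on sham shControl array 1 was 7.65, beside 7.64 on array 2 and 7.86 on array 3. It lay at the low end of the range over all arrays, 7.64 to 8.04, which includes this array.

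Among the partners of the G1 to S transition, 7 of 15 genes with a feature were measured. With shControl 2 rose and 0 fell after TAC, with shUhrf1 none passed, and after TAC 1 was lower with shUhrf1. Over all genes 11.4% rose with shControl, and 1.36% were lower with shUhrf1 after TAC. Cdk1, the mitotic kinase, which is also in the proliferation list, was undetected on all sham arrays and 5.28, 6.09 and 6.69 in TAC shControl, at least 1.58-fold higher (SE 0.29 on the log2 scale, adjusted p = 0.00444). In TAC shUhrf1 it was 4.31, 4.72 and 5.16, detected on 1 of the 3 arrays, and lower by a log2 difference of -1.29 ± 0.29 (adjusted p = 0.0355). Cdk2, the kinase that acts after Cdk4, rose with shControl by 0.51 ± 0.14 (adjusted p = 0.0261), and its difference with shUhrf1 was 0.11 ± 0.14 (adjusted p = 0.692). Ccnh and Cdk7, parts of the kinase that activates CDKs, did not pass in any comparison. Cyclins E and A2, Ccne1, Ccne2 and Ccna2, which act after the D cyclins, were below the detection filter.

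Of the pocket proteins and E2F factors, 6 of 12 were measured, and none passed in any comparison. E2f3 was the nearest, after TAC with shControl (adjusted p = 0.0538). It was undetected on all 3 sham shControl arrays and detected on 2 of 3 TAC shControl arrays, at least 1.08-fold higher. The E2F genes E2f1, E2f2, E2f7 and E2f8 and the Rb relatives Rbl1 and Rbl2 were below the filter.

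Of the other CDK inhibitors, 4 of 5 were measured, and 2 rose with shControl and 1 with shUhrf1. Over all genes those shares were 11.4% and 3.96%. Cdkn3, a phosphatase that acts on CDKs, was 5.14, 5.44 and 5.62 in sham shControl and 5.98, 6.29 and 6.26 in TAC shControl, a rise of 0.77 ± 0.18 on the log2 scale (adjusted p = 0.0107). With shUhrf1 it rose by 0.80 ± 0.18, at least 1.28-fold since it was undetected in sham (adjusted p = 0.0236). Cdkn2b, which encodes p15, passed with shControl (adjusted p = 0.0156), but it was undetected on all 3 sham arrays and detected on 1 of 3 TAC arrays, so no fold is given. Cdkn2d, which encodes p19, was at 0.54 ± 0.16 with shUhrf1 (adjusted p = 0.0645), and Cdkn1c, which encodes p57, at 0.65 ± 0.32 with shControl and -0.55 ± 0.32 with shUhrf1, neither past the threshold. Cdkn2a was below the filter.

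Of 14 other cyclins and CDKs measured, 1 rose and 1 fell with shControl and none passed in the other comparisons. Over all genes 11.4% rose and 7.47% fell with shControl. Cdk14, which pairs with cyclin Y at the membrane, was undetected in sham shControl and rose at least 1.39-fold after TAC (adjusted p = 0.00284). Cdk5, a kinase best known from neurons, fell by 0.55 (SE 0.17, adjusted p = 0.0363). Ccng2, the relative of Ccng1, was higher on all shUhrf1 arrays, by 0.69 ± 0.19 in sham (adjusted p = 0.151) and 0.74 ± 0.19 after TAC (adjusted p = 0.05003), both short of the threshold.

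**Figure D5:**
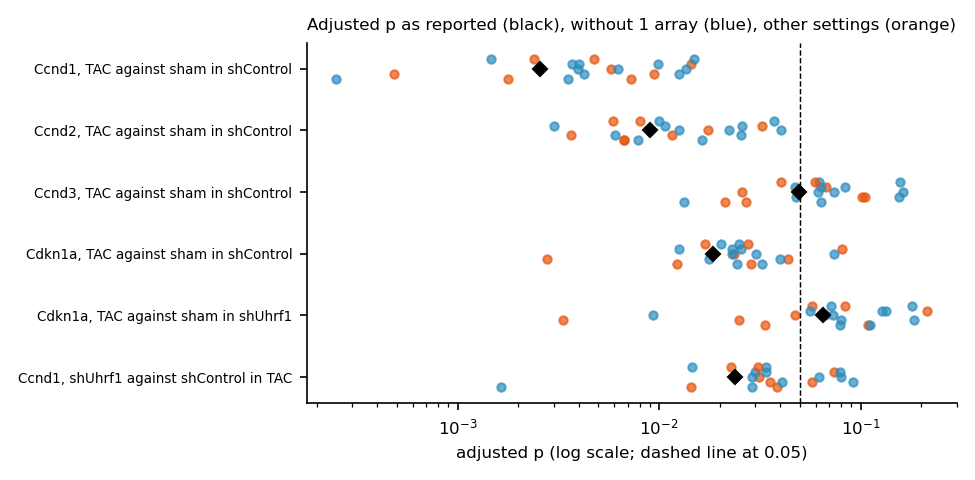
Adjusted p of 6 differences, as reported (black), without 1 array (blue) and under other settings (orange), on a log axis with a dashed line at 0.05. The Ccnd1 and Ccnd2 rises with shControl stay under 0.05 throughout, with highest values of 0.0149 and 0.0401, and the other 4 differences cross the line.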

How the data were processed

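The authors deposited, per the file headers, an intensity on a linear scale and a detection p-value for each of 45281 probes on 12 arrays. The authors' value table holds log2 values, with a median of 7.50 on the first array, and lumi was used, per the submitters' processing notes. No genome build is named, so only promoter windows carry coordinates.

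Gene names came from GEO's annotation of the platform, which gives 34885 probes 1 symbol, 18 several and 10378 none. Intensities were corrected and quantile-normalized with limma's neqc (limma 3.58.1, R 4.3.3), with background taken from the detection p-values and an offset of 16. The 15118 probes detected on 3 or more arrays (detection p under 0.01) were kept, and a gene was represented by its brightest probe. One model was fitted over all 12 arrays with lmFit and eBayes, and Benjamini-Hochberg adjustment ran over all kept probes. Errors are SE unless named. The fit was tested on simulated data.

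The members and lists were chosen with earlier results of these data known. Named were all members, Uhrf1, up to 4 genes of each pathway list with the smallest p in any comparison, and the 3 genes nearest in pattern to the 3 most variable members. Alternatives were other normalizations, the authors' table, other filters, averaging probes, fitting only the groups compared, leaving out each array, and a replicate block. No array held the same values as another.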

Additional observations from a re-analysis of the deposited data

How the results depend on the processing

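Each of 40 member differences was recomputed under 8 other settings, or 7 for the interaction, and without each of the 12 arrays, which gave 792 values. Of these, 763 kept their side of the threshold, 21 no longer passed and 8 newly passed. No value that passed changed direction, and 32 differences that passed under neither setting changed sign, with values between -0.35 and 0.48. The rises of Ccnd1 and Ccnd2 with shControl passed in all 20 alternatives, that of Cdkn1a in 18, that of Ccnd3 in 7 and the lower Ccnd1 after TAC with shUhrf1 in 14.

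The number of members past the threshold after TAC with shControl, 4, was 2 with no detection filter, which tests more genes, and 2 to 4 without single arrays. After TAC with shUhrf1 it was 0, and 1 without background correction, 1 in the authors' table, 1 with only the groups compared, 3 with median scaling (Cdkn1a, Ccnd2 and Rb1), and 0 to 1 without single arrays. For shUhrf1 against shControl after TAC it was 1, and 0 with median scaling, 0 with no filter and 0 to 1 without single arrays. For the interaction it was 0, and 0 to 1 without single arrays. The causes were not tested.

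Median scaling moved the median of all genes after TAC from -0.04 to 0.19 with shControl and from 0.010 to 0.45 with shUhrf1, and after TAC between hairpins from 0.013 to 0.28. The genes higher and lower were then 1196 and 72 with shControl, in place of 1001 and 653, 2002 and 13 with shUhrf1, in place of 346 and 139, and 256 and 45 between hairpins, in place of 134 and 119. Relative to those medians Ccnd1, at 0.56 with shUhrf1, stood against a median of 0.45.

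With a replicate block the members past the threshold were 3 with shControl, where Ccnd3 was lost (adjusted p = 0.0592), 0 with shUhrf1, 0 between hairpins in sham, 1 after TAC and 0 for the interaction. Same-numbered arrays of different groups correlated at -0.21 to 0.27 in their deviations, with 5 of 18 over 0.1. Differently numbered arrays correlated at -0.26 to 0.37, with 9 of 36 over 0.1. The numbers thus gave no sign of pairing, which deviations from means of 3 arrays cannot exclude. A fit with slide as a block was not run, because the files used here name no slide. Cdk6, Cdkn1b and low features are limited by signal over background.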

Other observations

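Sham shControl array 1 held the lowest value of every Cdkn1a feature and of 2 of the 3 Ccng1 features, while the third Ccng1 feature read 12.86 on the log2 scale, against 13.06 and 12.95 on the other sham shControl arrays.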
